A study of Mus musculus with 9 samples.

Results

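The RNA polymerase I and III machinery was taken as 34 listed genes for subunits, initiation factors and regulators of the 2 polymerases, out of 19938 genes on the array. Of these, 11 serve Pol I, 20 serve Pol III and 3 serve both. Each gene was represented by its probe set with the highest mean over all arrays, among probe sets annotated to that gene alone. A probe set of its own was found for 33 of the 34. Gtf3c2, a TFIIIC subunit, shares both of its probe sets with Mpv17 in the annotation and was not analysed here.

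The cells were mouse embryonic fibroblasts of 3 genotypes at the retinoblastoma gene Rb1. They were Rb +/+ (WT), Rb ∆G/∆G (ΔG, a targeted allele mutated where the protein contacts E2F transcription factors) and Rb -/- (null), with 3 arrays for each genotype and 9 in all. All cultures were plated at low density in 15 cm dishes and changed 24 h later to medium with 0.1% serum, which makes normal fibroblasts quiescent. Values are log2 RMA signals of total RNA, so a difference of 1 is a doubling. The labels give neither the embryos behind the arrays nor the part of Rb1 that the null allele lacks. Littermates were used, but which arrays share a litter is not given. Bulk RNA cannot tell fewer cells with a transcript apart from less of it in each cell.

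Pol I transcribes the ribosomal DNA repeats into the precursor of the large ribosomal RNAs, and Pol III makes 5S ribosomal RNA, transfer RNAs and other short RNAs. Pol I is brought to its promoter by the factor UBF, encoded by Ubtf, by the TBP-containing complex SL1, and by Rrn3, which bridges polymerase and promoter. Pol III uses TFIIIC to read promoter elements inside its genes and TFIIIB, made of TBP, BDP1 and BRF1 or BRF2, to place the polymerase. The retinoblastoma protein is known to bind UBF and TFIIIB and to restrain both polymerases in resting cells, through contacts between proteins. The arrays report the mRNAs of the machinery and not the rRNA or tRNA it makes.

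Array medians lay between 6.33 and 6.40. For Rb1 the WT arrays gave 9.08 ± 0.14, the ΔG arrays 9.61 ± 0.13 and the null arrays 8.31 ± 0.23 (mean ± SD, n = 3 each). In null it fell by 0.77 against WT (limma adjusted p = 0.00115), and probes outside the deleted part would still give signal, so this does not check the labels. Xist, expressed from the inactive X of female cells, was high on WT replicate 3 and all 3 null arrays (11.4 to 12.0) and low on WT replicates 1 and 2 and all 3 ΔG arrays (4.24 to 4.45), with Y-linked genes the other way round. Sex therefore cannot be told apart from genotype between ΔG and null, and is mixed with it in part against WT. All 10 fibroblast markers had a lower mean in null than in WT, and 8 were called (80%), against 18.4% of all genes. Their list means were 10.9 to 11.1 on null arrays, 11.4 to 11.6 on ΔG and 11.5 to 11.9 on WT. The 10 macrophage and leukocyte markers had list means of 5.82 to 6.97 on ΔG, 5.50 to 6.44 on WT and 5.68 to 5.91 on null arrays, with none called. Krt19 was the only one of 5 epithelial markers called in null (2.78-fold higher). The part of sex and of these markers in the values below was not tested, except where values within a sex pattern are given.

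The first question was whether loss of the retinoblastoma protein changed the mRNAs of either polymerase. In null fibroblasts 4 of the 33 measured members passed the test against WT, and all 4 belong to Pol III. Gtf3a, the 5S gene factor TFIIIA, and Polr3k, a small Pol III subunit, rose 1.40-fold and 1.27-fold. Brf1, the TFIIIB subunit used at tRNA and 5S genes, was 1.36-fold lower, and Polr3d, another Pol III subunit, was 1.31-fold lower. The 4 calls are 12.1% of the members, against 18.4% of all genes tested (8.38% higher and 10.1% lower), a smaller share than over the array as a whole. Among the 19 measured Pol III genes they are 21.1%, close to the share of all genes. An unadjusted p under 0.05 was found for 6 of the 33, where 30% of all genes had one. The null and WT arrays did not overlap for 12 of the 33 (36.4%), against 34.7% of all genes.

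**Figure D1:**
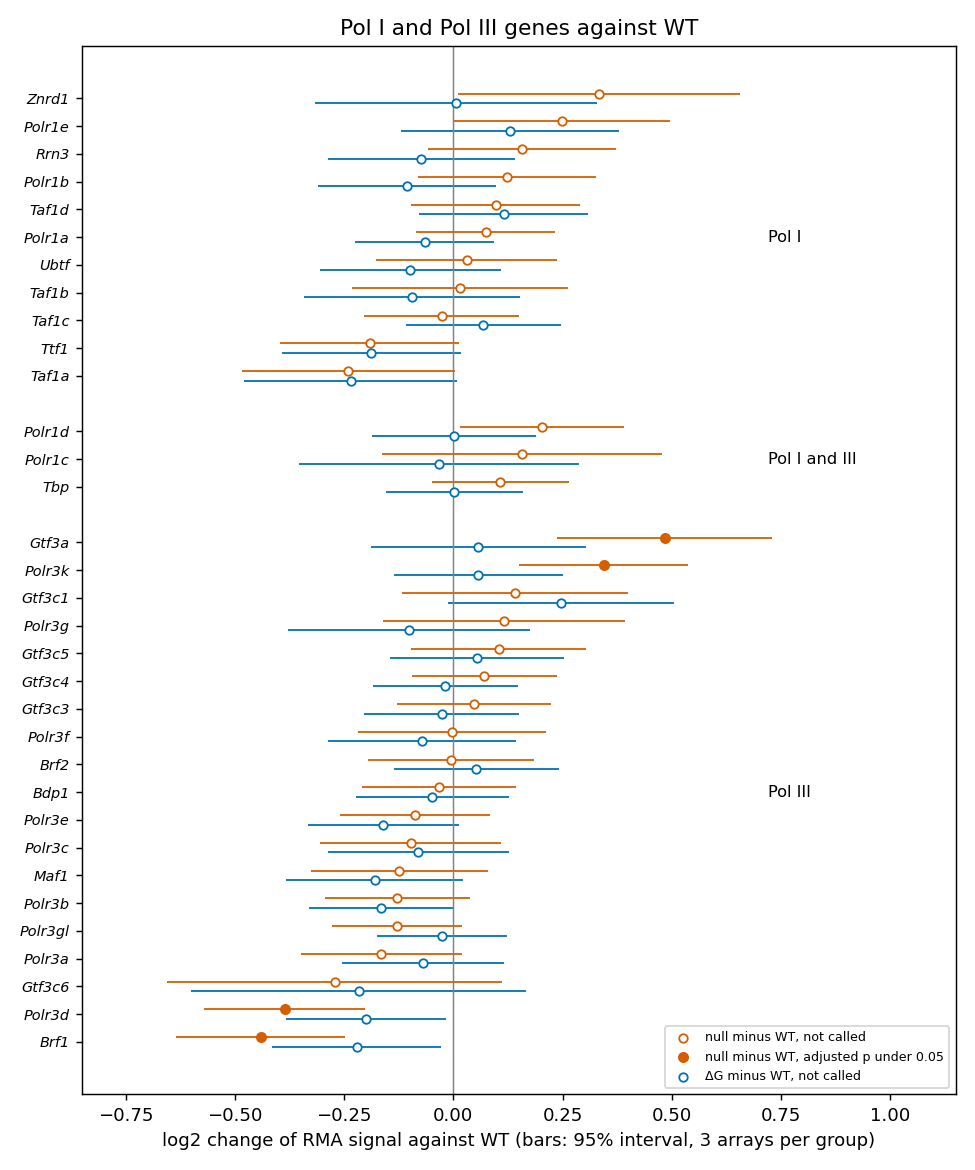
Log2 change of RMA signal against WT (x axis) for the 33 measured genes (y axis), in null (orange) and in ΔG (blue), with bars for the 95% interval of the fit and filled points for genes called at an adjusted p of 0.05. The 4 filled points are Gtf3a and Polr3k at 0.48 and 0.34 and Polr3d and Brf1 at −0.39 and −0.44, all in null, and no ΔG point is filled.

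Changes of the machinery were small in every comparison. All 33 measured members differed between null and WT by less than 0.5 on the log2 scale (1.41-fold), and 27 of them by less than 0.25. Of the 29 members that were not called, 27 had a 95% interval that lay wholly within ±0.5. The exceptions were Gtf3c6, a TFIIIC subunit, with a lower bound of −0.66, and Znrd1, the zinc-ribbon subunit of Pol I, with an upper bound of 0.66. Among all genes the median size of change was 0.12 on the log2 scale, and among the members it was also 0.12. By contrast all 16 genes of a G1/S E2F target list rose in null, with a median log2 change of 1.57 and, as examples, Mcm6, Mcm3 and Mcm2 of the replicative helicase at 4.46-fold, 3.74-fold and 3.73-fold. That list was known from earlier results to move, and it stands here only to give a scale.

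Gtf3a (probe set 10527547, chromosome 5) encodes the zinc-finger protein that binds the internal promoter of 5S genes and also carries 5S RNA. Its log2 signal was 8.96, 8.88 and 8.57 on WT replicates 1 to 3, 8.82, 8.73 and 9.04 on ΔG replicates 1 to 3 and 9.33, 9.34 and 9.19 on null replicates 1 to 3. All null arrays lay above all other arrays, and ΔG overlapped WT. By limma, null exceeded WT by 0.48 on the log2 scale (SE 0.11, adjusted p = 0.0114) and ΔG exceeded it by 0.06 (SE 0.11, adjusted p = 0.907). The direct difference, ΔG minus null, was −0.43 (SE 0.11, adjusted p = 0.0384). Among the members this was the only call between the mutants (3.03% of the 33), against 8.71% of all genes, 4.44% being higher and 4.27% lower in ΔG. Between the mutants 8 members had an unadjusted p under 0.05, against 23.1% of all genes, and 9 had groups that did not overlap, against 27% of all genes. The Gtf3a call between the mutants was lost without ΔG replicate 1 or 2 (adjusted p = 0.129 and 0.143) or without null replicate 1, 2 or 3 (0.127, 0.103 and 0.0585). The call against WT held without any one array. Against WT replicate 3 alone, the WT array with the Xist level of the null arrays, the log2 change was 0.72 (adjusted p = 0.012).

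Polr3k (probe set 10479736, chromosome 2) encodes the subunit that lets Pol III trim its transcript and end transcription. Its log2 signal was 7.86, 7.63 and 7.68 on the WT arrays, 7.80, 7.70 and 7.84 on the ΔG arrays and 8.15, 8.13 and 7.92 on the null arrays, in replicate order. The lowest null array lay only 0.07 above the highest WT array, while ΔG overlapped WT. The log2 change was 0.34 in null against WT (SE 0.09, adjusted p = 0.0186) and 0.06 in ΔG against WT (adjusted p = 0.877). ΔG minus null was −0.29 and was not called (adjusted p = 0.0686), though it was called without null replicate 3 (log2 difference −0.36, adjusted p = 0.0431). The null call was lost without WT replicate 2 or 3 (adjusted p = 0.0759 and 0.0561), without null replicate 1 or 2 (0.0805 and 0.0636), and against WT replicate 3 alone (log2 change 0.39, adjusted p = 0.0854).

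Brf1 (probe set 10402841, chromosome 12) encodes the TFIIIB subunit through which Pol III is placed on tRNA and 5S genes. Its log2 signal was 8.01, 8.18 and 8.29 on the WT arrays, 7.93, 7.96 and 7.93 on the ΔG arrays and 7.71, 7.84 and 7.60 on the null arrays, in replicate order. The 3 genotypes did not overlap, with WT highest, ΔG between and null lowest. The log2 change was −0.44 in null (SE 0.09, adjusted p = 0.00517) and −0.22 in ΔG (SE 0.09, 95% interval −0.42 to −0.03, adjusted p = 0.350). ΔG minus null was 0.22 (adjusted p = 0.158), so neither step around ΔG passed alone. The null call held without any one array, and the log2 change was −0.57 against WT replicate 3 alone (adjusted p = 0.0162).

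Polr3d (probe set 10421351, chromosome 14) encodes RPC4, which works with the Polr3e product in termination. Its log2 signal was 7.79, 7.997 and 7.96 on the WT arrays, 7.82, 7.58 and 7.75 on the ΔG arrays and 7.52, 7.57 and 7.49 on the null arrays, in replicate order. Null lay below both other groups without overlap, and ΔG overlapped WT. The log2 change was −0.39 in null (SE 0.08, adjusted p = 0.008) and −0.20 in ΔG (SE 0.08, adjusted p = 0.379), and ΔG minus null was 0.19 (adjusted p = 0.208). Against WT replicate 3 alone the null change was −0.43 and no longer called (adjusted p = 0.0519). With 1 WT array left, the fit assumes that WT varies as ΔG and null do.

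**Figure D2:**
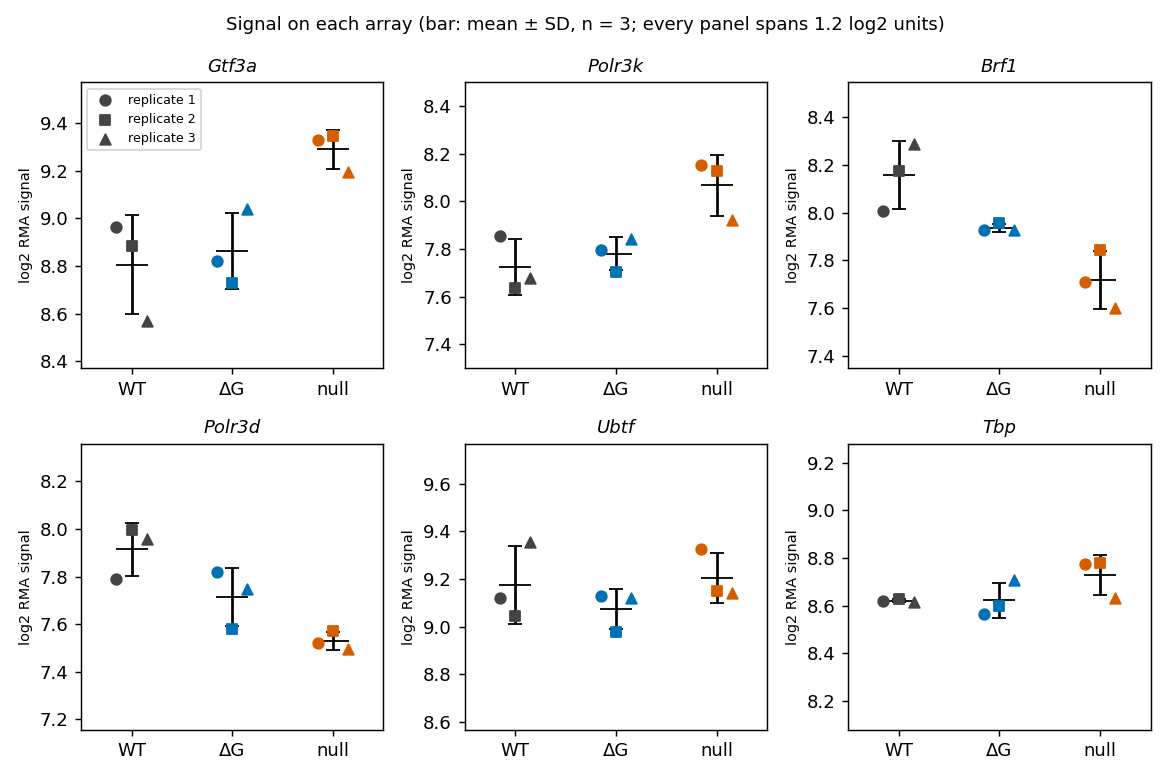
Log2 RMA signal (y axis) on each array of WT, ΔG and null (x axis) for the 4 called genes and for Ubtf and Tbp, with a symbol for each replicate and bars for mean ± SD (n = 3). Null arrays lie above WT for Gtf3a and Polr3k and below it for Brf1 and Polr3d, and ΔG lies between WT and null for Brf1.

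The other Pol III subunits were close to WT in null. Polr3a and Polr3b, which form the active centre, had log2 changes of −0.17 and −0.13 (adjusted p = 0.219 and 0.293). Polr3c and Polr3f, which open the promoter together with an RPC7 protein, had log2 changes of −0.10 and −0.002, and Polr3e had −0.09. Polr3a was called, at a log2 change of −0.26, without null replicate 2 (adjusted p = 0.0436). The RPC7 protein exists as a pair of paralogs, Polr3g, known for high expression in stem cells, and Polr3gl, the form of most differentiated cells. Polr3g signal was 5.70, 5.59 and 5.88 on WT arrays, 5.41, 5.52 and 5.94 on ΔG arrays and 5.83, 5.90 and 5.79 on null arrays, in replicate order. Its groups overlapped, and the log2 change was 0.12 in null and −0.10 in ΔG (adjusted p = 0.614 and 0.836). For Polr3gl the signal was 7.43, 7.54 and 7.59 on WT arrays, 7.49, 7.51 and 7.48 on ΔG arrays and 7.35, 7.41 and 7.41 on null arrays. Null lay just below WT without overlap, but the log2 change of −0.13 was not called (95% interval −0.28 to 0.02, adjusted p = 0.235). Each gene was compared with itself only, since probe sets of different genes do not share a scale.

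Within TFIIIB the remaining genes differed from Brf1. Brf2, the subunit for U6-type promoters, had log2 changes of −0.01 in null (95% interval −0.20 to 0.18) and 0.05 in ΔG. Bdp1, the third part of TFIIIB, had −0.03 and −0.05. The adjusted p-values in null were 0.976 and 0.842. TFIIIC had no called gene among 5 measured, against 18.4% of all genes called in null and 0.813% in ΔG. Gtf3c1, the largest TFIIIC subunit, had log2 changes of 0.14 in null and 0.25 in ΔG (adjusted p = 0.485 and 0.453). Gtf3c3, Gtf3c4 and Gtf3c5 lay between 0.05 and 0.10 in null. Gtf3c6 had the widest spread of all members, with a pooled within-group SD of 0.28 against a median of 0.11 over all genes, and WT values of 8.65, 8.38 and 9.10. Maf1, the repressor that shuts Pol III off under stress and starvation, had log2 changes of −0.12 in null and −0.18 in ΔG (adjusted p = 0.427 and 0.492), with both mutants below WT on every array.

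In the fit without a covariate no Pol I gene was called in null, against 18.4% of all genes. An unadjusted p under 0.05 was found for 1 of 11, against 30% of all genes. A total of 8 of 11 had a positive log2 change, against 9479 of all 19938 genes. The median was 0.07, against −0.01 over all genes. Null and WT did not overlap for 3 of 11 (27.3%), Polr1b, Polr1e and Znrd1, against 34.7% of all genes. The Pol I core subunits Znrd1, Polr1e, Polr1b and Polr1a had log2 changes of 0.33, 0.25, 0.12 and 0.07 (adjusted p = 0.153, 0.169, 0.434 and 0.563). Znrd1 signal was 8.17, 8.05 and 7.52 on WT arrays, 7.87, 7.78 and 8.11 on ΔG arrays and 8.31, 8.23 and 8.20 on null arrays, in replicate order. Null lay above WT, most of the distance being to WT replicate 3: the log2 change was 0.14 without that array (adjusted p = 0.455) and 0.73 against it alone (adjusted p = 0.0111). Rrn3, the growth-regulated link between Pol I and its promoter, measured 9.30, 9.44 and 9.29 on WT arrays, 9.13, 9.24 and 9.45 on ΔG arrays and 9.51, 9.63 and 9.37 on null arrays. The groups overlapped, and the log2 change was 0.16 in null and −0.07 in ΔG (adjusted p = 0.326 and 0.852).

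Ubtf, whose product is the known partner of the retinoblastoma protein on ribosomal DNA, measured 9.12, 9.04 and 9.36 on WT arrays, 9.13, 8.98 and 9.12 on ΔG arrays and 9.32, 9.15 and 9.14 on null arrays. The null arrays lay within the range of WT. The log2 change was 0.03 in null (95% interval −0.18 to 0.24, adjusted p = 0.879) and −0.10 in ΔG (95% interval −0.31 to 0.11, adjusted p = 0.770). Of the SL1 subunits Taf1a, Taf1b, Taf1c and Taf1d, Taf1a was lowest, at −0.24 in null and −0.23 in ΔG (adjusted p = 0.172 and 0.444). It was highest on WT replicate 3, and against that array alone the null change was −0.48 and called (adjusted p = 0.0452), while without it the change was −0.12. Taf1b, Taf1c and Taf1d had log2 changes of 0.015, −0.027 and 0.097 in null and −0.095, 0.069 and 0.115 in ΔG. Their limma adjusted p-values in null were 0.952, 0.872 and 0.53. Ttf1, which binds terminators of the ribosomal repeats, had −0.19 in both mutants (adjusted p = 0.199 and 0.473).

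None of the 3 members that serve both polymerases was called, and 1 of them had an unadjusted p under 0.05, against 18.4% and 30% of all genes. For 2 of the 3, Polr1d and Tbp, null and WT did not overlap, by narrow margins, against 34.7% of all genes. Polr1c and Polr1d form a heterodimer on which both enzymes are built, and mutations in the human genes cause Treacher Collins syndrome. Polr1d signal was 8.73, 8.64 and 8.49 on WT arrays, 8.63, 8.52 and 8.71 on ΔG arrays and 8.88, 8.85 and 8.73 on null arrays. The lowest null and highest WT arrays were nearly equal, and the log2 change was 0.20 (adjusted p = 0.132). Polr1c had a log2 change of 0.16 (adjusted p = 0.541). Tbp, the TATA-binding protein of SL1, TFIIIB and the Pol II factor TFIID, measured 8.62, 8.63 and 8.62 on WT arrays, 8.56, 8.60 and 8.71 on ΔG arrays and 8.77, 8.78 and 8.63 on null arrays. Null lay above WT by a log2 of 0.11 (95% interval −0.05 to 0.26, adjusted p = 0.367), and ΔG overlapped both groups.

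The second comparison asked whether the machinery differed between WT and ΔG, whose allele is mutated where the protein contacts E2F. In ΔG none of the 33 members was called by limma, against 0.813% of all genes (0.602% higher and 0.211% lower), and 2 had an unadjusted p under 0.05, against 11.8% of all genes. Those members were Brf1 and Polr3d, both lower. The largest log2 changes were 0.25 for Gtf3c1 and −0.23 for Taf1a, and 31 of the 33 had a 95% interval within ±0.5. In 5 of the 33 the ΔG and WT arrays did not overlap, 15.2% of the members against 16.5% of all genes. These were Brf1, Polr3b, Polr3e, Maf1 and Gtf3c1. Of the G1/S E2F target list, 12 of 16 genes were called higher in ΔG on the same arrays, with a median log2 change of 0.92.

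Values were also set side by side by class. The median log2 change of Pol I genes was 0.07 in null and −0.07 in ΔG, that of Pol III genes −0.03 and −0.07, and that of the shared genes 0.16 and 0.001, against −0.01 and −0.02 over all genes. Both comparisons use the same WT arrays. The mean signal of the Pol I genes was 8.21, 8.29 and 8.27 on WT arrays, 8.13, 8.17 and 8.32 on ΔG arrays and 8.34, 8.37 and 8.23 on null arrays. That of the Pol III genes was 7.99, 7.96 and 8.02 on WT arrays, 7.93, 7.86 and 7.99 on ΔG arrays and 7.97, 8.02 and 7.88 on null arrays. For both of these classes the 3 genotypes overlapped. The shared genes averaged 8.87, 8.79 and 8.87 on WT arrays, 8.89, 8.68 and 8.93 on ΔG arrays and 9.06, 9.05 and 8.89 on null arrays. For the mean of these 3 genes null lay above WT without overlap, but narrowly (8.89 against 8.87), while ΔG overlapped both. Polr1c taken alone overlapped between null and WT. ΔG replicate 3 was the highest ΔG array and null replicate 3 the lowest null array for all 3 classes.

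**Figure D3:**
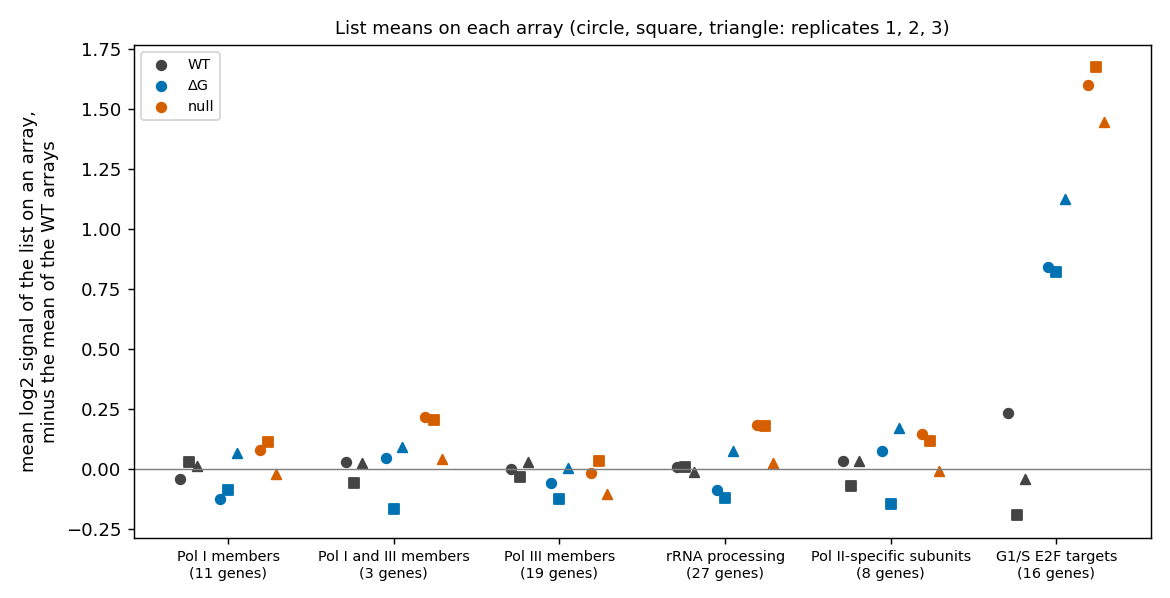
Mean log2 signal of each gene list on an array minus the mean of the WT arrays (y axis) for 6 lists (x axis), with colour for genotype and symbol for replicate. The Pol I and Pol III points of all genotypes overlap between all 3 genotypes, while the G1/S E2F targets separate WT, ΔG and null.

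Genes around the machinery were counted in the same way, against 18.4% of all genes called in null (8.38% higher and 10.1% lower) and 0.813% in ΔG. Of 8 measured further subunits of the polymerases, none was called in null or ΔG (1 and 0 with an unadjusted p under 0.05), and Twistnb, a Pol I subunit, came nearest with 0.31 in null (adjusted p = 0.0684). None of 8 subunits specific to Pol II was called either (1 and 0 with an unadjusted p under 0.05). Among 5 measured genes of the snRNA promoter complex, which serves U6 and other small nuclear RNA genes, Snapc5 rose 1.52-fold and Snapc3 was 1.24-fold lower in null (adjusted p = 0.000725 and 0.0445). Of 27 rRNA processing and ribosome assembly genes, 4 were called higher and none lower in null, 14.8% of the list, with a median log2 change of 0.08. They included the box C/D snoRNP proteins Nop58 and Nop56, at 1.49-fold and 1.34-fold, and the small-subunit processome protein Utp20, at 1.41-fold. Of 17 regulators of ribosomal and transfer RNA genes, Tcof1 and Nolc1, nucleolar phosphoproteins that work with Pol I, rose 1.28-fold and 1.19-fold, and Max, the partner of Myc, was 1.29-fold lower (adjusted p = 0.00678, 0.0435 and 0.00418). Tsen15, of the tRNA splicing endonuclease, was the only call among 15 tRNA processing genes (1.34-fold higher). None of these genes was called in ΔG, where Max had a log2 change of −0.24 (adjusted p = 0.184) and Utp20 one of 0.33 (adjusted p = 0.137).

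**Figure D4:**
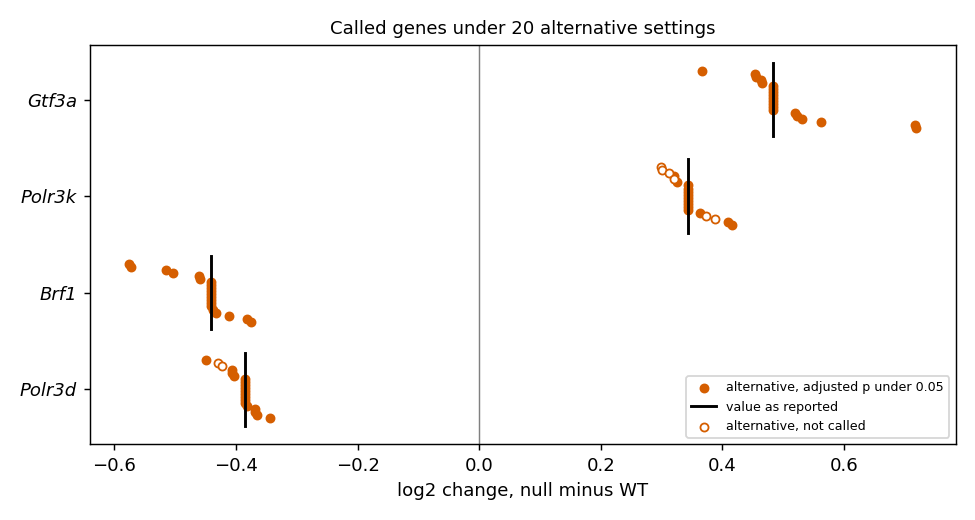
Log2 change in null against WT (x axis) for the 4 called genes (y axis) under 20 other settings of the analysis, with filled points called at an adjusted p of 0.05, open points not called, and a black line at the value as reported. Gtf3a and Brf1 stay called throughout, Polr3d is not called under 2 settings and Polr3k is not called under 6, and no gene changes direction.

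Promoters of the members were read from RefSeq sequences (build GRCm38.p6) covering 250 bases before to 50 bases after each transcript start. The table held 38 promoters for 29 of the 34 genes, and none for Brf1, Brf2, Polr3a, Polr3d and Maf1. They were searched on both strands for 4 spellings of the E2F-type motif, TTTCCCGC, TTTGGCGC, TTTGCCGC and TTTCGCGC, and for the E-box CACGTG that Myc and Max bind. An E2F-type motif stood in 1 of 38 member promoters (2.63%), against 2.27% of all 32851 promoters and in 6 of 15 promoters (40.0%) of the G1/S E2F target list. The E-box stood in 6 member promoters (15.8%), those of Gtf3c6, Polr3c, Polr3e, Polr3gl and Rrn3, against 7.15% of all. Gtf3c6 was counted with overlapping windows that hold the same E-box, so the promoters stand for 5 genes. The shares are descriptions, and a match is not a binding site. The promoters of the members with the lowest p in null that the table holds are printed: the risen genes Gtf3a and Polr3k, then Polr1d and Znrd1, which were not called. The first 3 genes held neither motif. All are given 5′ to 3′ to show what was searched. Capitals mark the only match, in Znrd1, which is TTTCCCGC on the opposite strand and begins at position −215 from the transcript start. The table holds a second Znrd1 promoter, at an overlapping window for another start, in which no E2F-type motif was found.
Gtf3a, chr5:146948407-146948706, plus strand: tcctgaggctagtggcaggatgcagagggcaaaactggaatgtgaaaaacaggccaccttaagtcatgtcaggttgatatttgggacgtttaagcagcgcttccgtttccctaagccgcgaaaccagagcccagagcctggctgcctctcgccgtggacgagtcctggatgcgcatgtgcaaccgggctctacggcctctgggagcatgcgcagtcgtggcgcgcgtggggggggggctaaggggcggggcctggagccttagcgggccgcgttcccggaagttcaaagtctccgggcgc
Polr3k, chr2:181864110-181864409, plus strand: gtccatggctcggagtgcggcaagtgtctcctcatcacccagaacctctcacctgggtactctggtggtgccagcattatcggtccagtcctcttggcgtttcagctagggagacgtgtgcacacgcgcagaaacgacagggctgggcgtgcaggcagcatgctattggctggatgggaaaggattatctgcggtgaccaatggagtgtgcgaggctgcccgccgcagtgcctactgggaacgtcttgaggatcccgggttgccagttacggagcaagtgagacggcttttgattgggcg
Polr1d, chr5:147077096-147077395, plus strand: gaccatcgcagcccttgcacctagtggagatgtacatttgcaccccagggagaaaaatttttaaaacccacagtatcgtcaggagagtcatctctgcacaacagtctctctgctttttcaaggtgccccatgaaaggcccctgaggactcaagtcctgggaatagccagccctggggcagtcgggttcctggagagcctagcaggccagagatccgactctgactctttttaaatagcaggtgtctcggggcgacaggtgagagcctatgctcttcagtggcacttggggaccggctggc
Znrd1, chr17:36958476-36958775, minus strand: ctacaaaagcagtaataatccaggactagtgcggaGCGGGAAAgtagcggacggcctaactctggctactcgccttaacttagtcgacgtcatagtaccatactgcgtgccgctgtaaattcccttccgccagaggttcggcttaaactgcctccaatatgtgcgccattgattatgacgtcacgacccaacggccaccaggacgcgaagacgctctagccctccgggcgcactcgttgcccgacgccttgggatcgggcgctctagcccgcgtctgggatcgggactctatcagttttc

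Some members lie near each other in the genome, and their values were set side by side. Gtf3a and Polr1d are on chromosome 5 with 2 protein-coding genes between them in GRCm38.p6, and both lay higher in null, by 0.48 and 0.20 on the log2 scale, the second without a call. Gtf3c5, Gtf3c4 and Ttf1 are close to each other on chromosome 2, with 4 and 3 genes between neighbours, and had log2 changes of 0.10, 0.07 and −0.19 in null. Polr3gl and Polr3c on chromosome 3, with 8 genes between them, had −0.13 and −0.10, neither called.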

How the data were processed

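RNA from 9 fibroblast cultures was measured on Affymetrix Mouse Gene 1.0ST arrays, with 3 arrays for each genotype in the labels. The deposited values are on the log2 scale and were made by the authors as RMA values with BRB-Array Tools, per the labels and series text. The submitters' processing notes also name the affy package; no version was found. Values were used without further scaling or detection calls, and precision is limited by having 9 arrays. Of 35512 probe sets, 21789 had exactly 1 symbol in the platform annotation, 1621 several and 12102 none or no annotation row. Symbols were updated by gene ID to GRCm38.p6 (21698 probe sets matched). Genotype means were fitted for all 19938 genes together in limma 3.58.1 under R 4.3.3, with default eBayes and 6 residual degrees of freedom. Genes were called at 0.05 after Benjamini-Hochberg adjustment over the whole table. Intervals are at 95% and come from that fit. Since no label says that arrays come from separate embryos, p-values reflect only the scatter among these samples, which may be technical within ΔG and null. WT replicate 3 differed from WT replicates 1 and 2 in Xist (11.42 against 4.31 and 4.45) and in Y-linked signal. The scatter within WT is therefore not only technical. The fit was also run on simulated data with independent normal values. Those data held no sex, litter or array effects, so they do not check the fit against such effects. The members and the lists were chosen with earlier results of these data known, so no list was tested, and members' counts are set beside those of all genes. All 34 members are accounted for. Members called or named for their role are given on every array, and from each other list at most the 3 genes with the lowest p in null or ΔG were named. Promoters were printed for the 4 members with the lowest p in null that the table holds. No label says whether arrays with the same number share a litter. Correlations of their deviations from group means ran from −0.08 to 0.27, not all above 0.1. Those between arrays with different numbers ran from −0.24 to 0.14. Whether the arrays are paired by number is therefore not known. Alternatives covered scaling, probe set choice, filter, variance model, array weights, block, sex and leaving out each array.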

Additional observations from a re-analysis of the deposited data

How the results depend on the processing

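In null against WT the count of 4 called members held within 1.5 times under all 20 alternatives, and was 3 to 4 without any one array. The genes behind the count were not always the same. Brf1 and Gtf3a kept their calls in all 20 (log2 changes −0.58 to −0.38 and 0.37 to 0.72), Polr3d in 18 and Polr3k in 14. With the mean of the 3 measured Y-linked genes as a covariate, Polr3d and Polr3k were not called (adjusted p = 0.0726 and 0.128), while Znrd1 and Taf1a were (log2 changes 0.74 and −0.51, adjusted p = 0.0173 and 0.0389). That covariate moved the Pol III median from −0.03 to −0.10 in null against WT and from −0.04 to 0.10 in ΔG minus null. Within a genotype the Y-linked mean varied mainly in WT, at 8.48, 8.88 and 4.37 on replicates 1 to 3. It was 8.41 to 8.90 on ΔG arrays and 3.96 to 4.08 on null arrays. Results with the covariate therefore rest mostly on WT replicate 3 and are not independent of those against that array alone. No member was called in ΔG against WT under any of the 20 alternatives run there. In ΔG minus null the count of 1 became 6 with array weights, 0 with the covariate, 0 with the replicate number as a block (Gtf3a adjusted p = 0.0515) and 0 to 3 without any one array, the 3 without ΔG replicate 3. The block changed no other call among the members. It took the calls over all genes from 3678 to 3777, 162 to 211 and 1737 to 1977 in the 3 comparisons. With probe sets that list a RefSeq mRNA, an alternative chosen after seeing the data, the calls among members stayed at 4, 0 and 1. The members called in the reported fit kept their direction in all alternatives. Polr3g, called in ΔG minus null only without ΔG replicate 3, ranged from −0.38 to 0.10 over the alternatives of that comparison. Counts over all genes moved more: 62 to 252 were called in ΔG against WT without any one array, with 62 when WT replicate 2 was left out, 70 and 83 for ΔG replicates 2 and 1, 91 for null replicate 1 and 252 for ΔG replicate 3. Array weights gave 292. In ΔG minus null leaving out ΔG replicate 1 or 2 gave 762 or 885 calls and null replicate 1 gave 847, against 3697 with array weights and 53 with the covariate. In null against WT 1580 were called with the covariate and 1782 against WT replicate 3 alone. The cause of these shifts was not tested.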

Other observations

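Members with several probe sets did not give one value. Taf1d, an SL1 subunit, has 9 probe sets, of which 4 hold identical values on all arrays. The brightest of them, used here, lists no RefSeq mRNA in the annotation and had a mean log2 change of 0.10 in null and 0.12 in ΔG. The only one that lists a RefSeq mRNA had 0.11 and 0.03, and the range over all 9 was −0.01 to 0.14 in null and 0.03 to 0.31 in ΔG. Polr3e has 2 probe sets that differed in sign, at −0.09 and 0.08 in null and −0.16 and 0.14 in ΔG. The 2 probe sets of Polr1d had 0.20 and 0.18 in null and 0.001 and 0.09 in ΔG.

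Spread between replicates differed among members. Polr3gl, Tbp and Polr1a had pooled within-group SDs of 0.05, 0.07 and 0.07 on the log2 scale, and Gtf3c6, Znrd1 and Polr1c had 0.28, 0.23 and 0.22. The 3 WT arrays of Tbp had an SD of 0.006.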
